A study of Mus musculus with 4 samples.

Results

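The 10 genes described here are used as identity genes of the alveolar type I (AT1) cell: Ager, Hopx, Rtkn2, Spock2, Igfbp2, Clic5, Akap5, Pdpn, Emp2 and Pxdc1. They were taken by symbol from the 22547 features of the count tables, and all 10 were found, none with a duplicated symbol. AT1 cells are the thin, flat epithelial cells that form most of the gas exchange surface of the lung, and alveolar type II (AT2) cells are their cuboidal, surfactant-producing neighbours. In culture and after injury, cells of the alveolar epithelium can change identity, and AT1 genes are then read as a set to say how much of the AT1 state a cell carries. The members have different jobs, from surface receptors and membrane organisers to secreted matrix proteins.

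All 4 libraries came from lung of Gramd2creERT2;mTmG mice, in which a tamoxifen-inducible Cre driven by Gramd2, itself an AT1 gene, switches the mTmG reporter of a recombined cell to membrane GFP. GFP+ cells sorted by flow cytometry made up the day 0 library. The other 3 libraries held sorted GFP+ cells grown as organoids for 8, 13 or 20 days, started with 100000 fibroblasts of the MLg line in growth factor-reduced Matrigel with SB 431542, an inhibitor of TGF-beta receptor signalling. Cultured cells were enriched on EpCAM beads after dissociation, and day 0 cells were not labelled as bead-enriched. Age, sex and the number of mice per library were not given in the labels, and each day was 1 library. Differences between days therefore stand without replication, and no p-value is given for them. Intervals are 95% intervals that cover counting error only.

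Of 8902, 11390, 11445 and 10368 barcodes at days 0, 8, 13 and 20, the filter of at least 500 genes and at most 15% mitochondrial unique molecular identifiers (UMIs) kept 7350, 7893, 9311 and 9178. Their median depth was 2558.5 UMIs at day 0 and 17075, 9527 and 12791 UMIs at days 8, 13 and 20, and pairs of libraries shared 25 to 41 barcodes. The label of alveolar epithelial cells did not describe most barcodes: 5929 of 7350 kept cells at day 0 had no Epcam UMI and fell outside the AT1 gate, with myeloid-like and endothelial-like cells the most numerous classes. Likewise 7044, 6995 and 8060 kept cells of days 8, 13 and 20 had no Epcam UMI. Day 0 AT1 cells were defined by the gate itself, Ager and Hopx together at 1% or more of a cell's UMIs, which 565 of 7350 cells met. That is 7.69% of kept cells (7.09 to 8.32%, Clopper-Pearson). Of these 565 cells, 367 had an Epcam UMI, 17 carried 3 or more endothelial markers and 11 carried 3 or more ciliated markers. Cultured epithelial cells were those with at least 1 Epcam UMI, numbering 847, 2305 and 1110 at days 8, 13 and 20.

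Day 0 AT1 cells had high levels of all 10 genes, and day 0 non-epithelial cells had little of most of them. Levels are given as CPM, the UMIs of a gene per 1000000 summed UMIs of a cell group, from a kit that counts 3' ends. Ager, which encodes the receptor for advanced glycation end products found on the basal surface of AT1 cells, had 22819.8 CPM in day 0 AT1 cells and 71.0 CPM in day 0 non-epithelial cells. Hopx, a homeodomain-only protein that does not bind DNA, had 15929.6 CPM in the AT1 cells and 192 CPM in the non-epithelial cells. Those values describe the gate, which used both genes, and support nothing further. Of the 8 members the gate did not use, all 8 were higher in day 0 AT1 cells by the rule used throughout: at least 2-fold, at least 20 CPM on the larger side and an interval of the ratio that leaves out 1. Among all 7927 genes tested in this comparison, 18.1% were higher. The median log2 ratio was 6.02 over the 8 members and 0.03 over all genes. The 8 were listed as AT1 genes with earlier results of these data known, so these values describe them and test nothing. Median-of-ratios scaling shifts these ratios by -0.31 and gives 33.9% higher among called genes instead of 44.7%, with all 8 members still higher.

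The 8 genes differed in how far they set AT1 cells apart within the sorted library. Igfbp2, a secreted binding protein for insulin-like growth factors that marks mature AT1 cells in mouse, had 2412 CPM in day 0 AT1 cells against 5.92 CPM in day 0 non-epithelial cells, a 408-fold difference. Rtkn2 had 1142 against 8.16 CPM (140-fold). Akap5, which anchors protein kinase A, protein kinase C and calcineurin at membranes, had 1056 against 8.83 CPM (119.5-fold). Pdpn, the mucin-like podoplanin of the apical AT1 membrane, was 66.3-fold higher, and Spock2, the secreted matrix proteoglycan testican-2, was 63.3-fold higher. The smallest contrasts were those of Clic5, a chloride intracellular channel protein tied to the cortical actin skeleton, at 27.4-fold, of Emp2, a tetraspan membrane protein, at 24.6-fold, and of Pxdc1, named for its phosphoinositide-binding PX domain, at 21.5-fold.

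Non-epithelial levels were not spread evenly over classes. Classes were assigned from marker lists and are named as marker-based resemblances. The 189 aerocyte-like capillary cells had 5938 CPM of Emp2, 984 CPM of Clic5, 2063 CPM of Hopx and 35.2 CPM of Pxdc1. Those 4 members were higher than in the 1633 myeloid-like cells, where 25.9% of genes were higher. Emp2 showed the widest gap, 5938 CPM in aerocyte-like cells against 23.3 CPM in myeloid-like cells. The Emp2 level of aerocyte-like cells thus lay above the 4885 CPM of the AT1 cells, a gap read from 1 library. The 1145 other endothelial-like cells had 573 CPM of Clic5, 301 CPM of Hopx, 180 CPM of Pxdc1 and 137 CPM of Emp2, again 4 members higher than in myeloid-like cells against a background of 22.1%.

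Lymphatic endothelial-like cells, 131 in number, had 345 CPM of Pdpn against 3.22 CPM in myeloid-like cells, and podoplanin is a standard marker of lymphatic vessels. Clic5, Pxdc1 and Emp2 were also higher there, making 4 members against 23.7% of genes. Of the 83 mesothelial-like cells, the sums gave 166 CPM of Spock2, 120 CPM of Pdpn, 144 CPM of Emp2 and 93.5 CPM of Pxdc1, all 4 higher than in myeloid-like cells (22.8% of genes). Among classes of at least 50 cells outside the gate, Rtkn2 reached at most 16.8 CPM and Akap5 at most 18.9 CPM, and Igfbp2 reached 52.8 CPM in ciliated-like cells without an Epcam UMI. In myeloid-like cells, which should lack the set, Ager had 57.0 CPM, Hopx 116 CPM and the other 8 between 3.22 and 23.3 CPM.

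**Figure D1:**
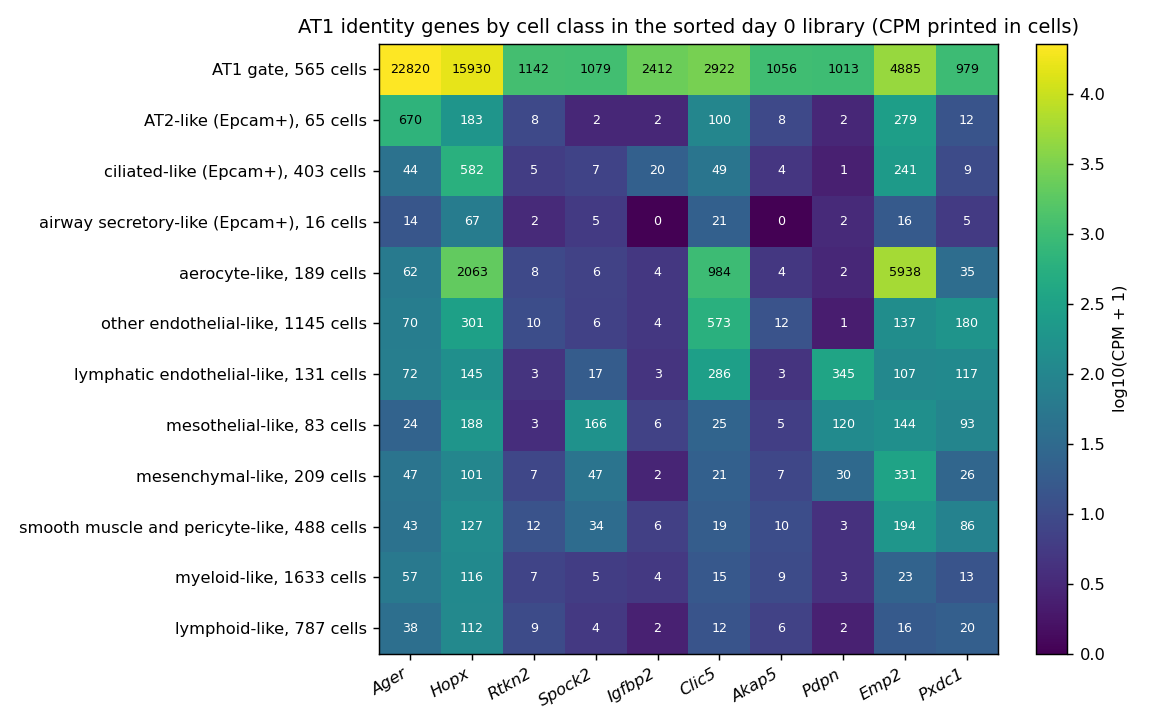
Levels of the 10 genes in the AT1 gate and in cell classes of the sorted day 0 library. Columns are genes, rows are classes with their cell numbers, the printed value is CPM of the summed UMIs and the colour is log10 of CPM plus 1. The row of the AT1 gate is high in every column, while Emp2, Clic5 and Hopx are also high in aerocyte-like cells, Pdpn in lymphatic endothelial-like cells and Spock2 in mesothelial-like cells.

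In the sum of all cultured epithelial cells, every member was lower than in day 0 AT1 cells at all 3 culture days. The 8 members outside the gate were all lower at days 8, 13 and 20, where 30.8%, 31.2% and 31.7% of all genes were lower. Their median log2 ratios were -7.66, -6.49 and -7.01 at days 8, 13 and 20, beside -0.37, -0.34 and -0.46 over all genes. These sums mix cells of several classes, so fewer cells with a gene and less of it per cell cannot be told apart in them. Under median-of-ratios scaling, every log2 ratio of these comparisons shifts by 0.61 to 0.66 upwards and the share of higher genes among called genes is 61.7%, 62.2% and 60.9% at days 8, 13 and 20, instead of 34.5%, 35.7% and 29.5%. All 8 members stayed lower under it.

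Grouped after their values were seen, the genes formed a set with smaller and a set with larger differences from day 0 AT1 cells. Emp2 had 4885 CPM in day 0 AT1 cells and 260, 238 and 325 CPM in epithelial cells of days 8, 13 and 20, which at day 20 is 15.05-fold lower. Akap5 had 1056 CPM at day 0 and 50.4, 32.3 and 45.8 CPM at days 8, 13 and 20. Clic5 had 2922 CPM at day 0 and 86.3, 63.0 and 115 CPM at the later days. Those 3 genes were 15.05-fold, 23.1-fold and 25.4-fold lower at day 20 for Emp2, Akap5 and Clic5, next to Ager with a log2 ratio of -4.60 and Hopx with -5.41. Pdpn had 1013 CPM at day 0 and 17.4, 41.2 and 29.0 CPM at days 8, 13 and 20, log2 ratios of -5.86, -4.62 and -5.13.

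The other 4 genes had 13.8 CPM or less in cultured epithelial cells. Rtkn2 had 1142 CPM at day 0 and 0.428, 0.767 and 1.26 CPM in epithelial cells of days 8, 13 and 20. Spock2 had 1079 CPM at day 0 and 0.482, 1.05 and 0.421 CPM at days 8, 13 and 20, which is 2561-fold lower at day 20. Igfbp2 had 2412 CPM at day 0 and 0.696, 13.8 and 0.281 CPM at the later days. Pxdc1 had 979 CPM at day 0 and 1.39, 2.81 and 2.06 CPM. These 4 genes had log2 ratios between -13.07 and -7.45, whereas the other 6 lay between -6.36 and -3.91.

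**Figure D2:**
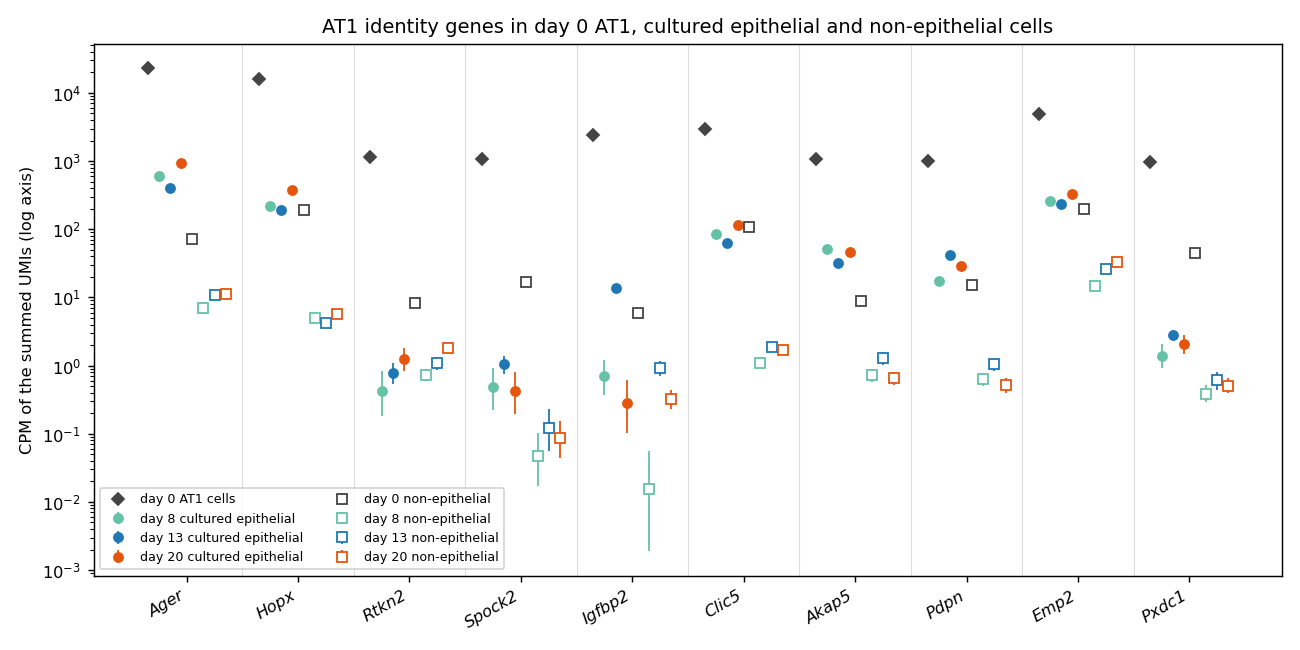
CPM of each gene (log axis) in day 0 AT1 cells (diamonds), cultured epithelial cells (filled circles) and non-epithelial cells (open squares), with bars for the exact Poisson interval of the summed UMIs. Rtkn2, Spock2, Igfbp2 and Pxdc1 sit orders of magnitude below their day 0 AT1 level in cultured epithelial cells, while Ager, Hopx, Clic5, Akap5 and Emp2 stay well above the cultured non-epithelial cells.

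The members were also compared between epithelial and non-epithelial cells of each culture library. Ager, Hopx, Clic5, Akap5 and Emp2 were higher in epithelial than in non-epithelial cells at every culture day, and Pdpn was higher at days 13 and 20. That gives 5, 6 and 6 of the 10 members at days 8, 13 and 20, where 12.6%, 14.8% and 13.3% of genes were higher and 11.6%, 12.8% and 15.5% lower. These were all the members that could be called, and each reached 20 CPM in the epithelial cells. Leaving the 20 top genes out of the scaling put the share of higher among called genes at day 20 at 58.7% instead of 46.3%, with 6 members still higher. Akap5, for example, had 45.8 CPM in day 20 epithelial cells against 0.659 CPM in day 20 non-epithelial cells, and Clic5 had 115 against 1.67 CPM. Rtkn2, Spock2, Igfbp2 and Pxdc1 were under 20 CPM on both sides at each culture day, as was Pdpn at day 8, and so could not be called. Pdpn had 17.4 against 0.627 CPM at day 8, a log2 ratio of 4.79 (4.44 to 5.16). Rtkn2 had log2 ratios of -0.78, -0.50 and -0.51 at days 8, 13 and 20, with intervals that include no difference. Ratios of epithelial over non-epithelial cells were 10.4, 8.60 and 4.82 for Spock2 at days 8, 13 and 20, and 3.59, 4.62 and 4.05 for Pxdc1, with intervals that leave out 1. Igfbp2 had 13 against 2 UMIs at day 8 (44.9-fold, log2 ratio 5.49, 3.35 to 8.68), a log2 ratio of 3.91 (3.54 to 4.29) at day 13 and of -0.21 (-1.74 to 1.03) at day 20.

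Between culture days, 6 of the 10 members reached the level at which the sums of epithelial cells could be called, and 1 was called at each step. From the epithelial cells of day 8 to those of day 13, Pdpn was the only member called, 41.2 CPM at day 13 against 17.4 CPM at day 8, a log2 ratio of 1.25 (1.07 to 1.42), where 3.5% of genes were higher and 2.47% lower. Between days 20 and 13, Ager was the only member called, 944 CPM at day 20 against 404 CPM at day 13, a log2 ratio of 1.22, where 2.74% of genes were higher and 3.87% lower. With the 20 top genes left out of that scaling, 3 members were called and the share of higher among called genes was 58.9% instead of 41.5%. Igfbp2 showed a spike that stayed under the level of 20 CPM: 13.8 CPM at day 13, against 0.696 CPM at day 8 and 0.281 CPM at day 20. Both single calls disappeared at a 4-fold limit, where no member was called, and up to 4 members were called when epithelial cells had to carry more epithelial than other markers.

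Because those sums mix cells of several classes, the same gate was then put on cultured epithelial cells. Ager and Hopx together reached 1% of UMIs in 8 of 847 epithelial cells at day 8 (0.945%, 0.409 to 1.85%), 32 of 2305 at day 13 (1.39%, 0.951 to 1.95%) and 17 of 1110 at day 20 (1.53%, 0.895 to 2.44%). The lowest cell inside the gate had 1.09%, 1.0003% and 1.01% at days 8, 13 and 20, and the highest cell outside it had 0.999%, 0.9999% and 0.999%. Gated cultured cells are called AT1-gated here, not AT1 cells, since the gate is the only criterion they share with day 0. Cultured cells also needed an Epcam UMI, which day 0 cells did not. With or without one, 10, 43 and 25 kept cells passed the gate at days 8, 13 and 20. Their Ager levels were 22819.8 CPM at day 0 and 6212, 11768 and 13189 CPM at days 8, 13 and 20, and their Hopx levels were 15929.6 CPM at day 0 and 8708, 3893 and 5381 CPM at the later days. At day 8, 1 of the 8 gated cells had 0 Ager UMIs and 426 Hopx UMIs among its 26162 UMIs. All 8 cells together held 642 Hopx UMIs and 73726 UMIs, so this cell weighs heavily in the day 8 sums.

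Under this gate, Clic5, Akap5 and Emp2 lay within 3.22-fold of the day 0 AT1 cells at each culture day, and the other 5 of the 8 members did not. That limit is the largest fall among the 3 genes, of Clic5 at day 8, so the split was read from these values. It rests on a day 8 sum of 73726 UMIs, of which the cell without an Ager UMI held 26162. In the median gated cell, Clic5 had 1144 CPM at day 8 against 2734 CPM at day 0. Of the 8, 7 were lower at day 8, 5 at day 13 and 6 at day 20, where 10.1%, 28.1% and 22.4% of all genes were lower and 9.25%, 10.2% and 9.13% higher. The median log2 ratio over the 8 was at most -4.68 at day 8, where 4 genes had no UMI, and -3.95 at day 13 and -3.83 at day 20, beside -0.07, -0.38 and -0.48 over all genes. Median-of-ratios scaling shifts these ratios by -0.91, -0.38 and -0.55 at days 8, 13 and 20 and lowers the share of higher genes among called genes to 13.8%, 13.9% and 9.78%, instead of 47.8%, 26.7% and 28.9%. That scaling used only genes with at least 50 UMIs on both sides, which in these small groups favours genes high in culture. Centring on the medians over all genes would raise the ratios instead, so the calls this scaling adds depend on that limit. With the 20 top genes left out of the scaling, that share was 40.7% at day 20.

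In the sums, Akap5 lay closest of the 8 genes to day 0 at each culture day. It had 1056 CPM (1006 to 1107) in AT1-gated cells of day 0 and 570 CPM (411 to 770.0), 931 CPM (840.4 to 1028) and 588 CPM (483 to 709) at days 8, 13 and 20. The log2 ratios over day 0 were -0.89, -0.18 (-0.34 to -0.02) and -0.84, none of which met the 2-fold rule. Under median-of-ratios scaling, with its limit of 50 UMIs on both sides, the day 8 and day 20 ratios were -1.80 and -1.39. Both were called lower there. At day 20 Akap5 was also called lower at a gate of 0.5%, with a gate on Ager alone, with mean single-cell CPM and under 1% Sftpc. The intervals of the Akap5 and Emp2 ratios overlapped at days 8 and 20, so their order there is within counting error. In the median gated cell of day 20, Akap5 had 387 CPM against 873 CPM at day 0, and Emp2 2386 against 4780 CPM.

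Emp2 had 4885 CPM (4778 to 4994) in AT1-gated cells of day 0 and 1818 CPM (1523 to 2153), 2710.5 CPM (2555 to 2873) and 2577 CPM (2352 to 2819) at days 8, 13 and 20. It was called lower at day 8, with a log2 ratio of -1.43, and did not meet the 2-fold rule at day 13 (-0.85) or day 20 (-0.92). Clic5 had 2922 CPM (2839 to 3006) at day 0 and 909 CPM (704 to 1154), 1849 CPM (1721 to 1985) and 1256 CPM (1100.2 to 1428) at days 8, 13 and 20. It was called lower at days 8 and 20, with log2 ratios of -1.68 and -1.22, and not at day 13 (-0.66). In gated cells under 1% Sftpc its day 20 ratio was -0.98 and no longer called. Under median-of-ratios scaling, with the same limit of 50 UMIs, Emp2 was called lower at days 13 and 20 as well, at -1.22 and -1.47. Clic5 was then called lower at day 13, at -1.03. In the sums, day 13 was the closest to day 0 for all 3 genes and every culture day lay below day 0. The median gated cell had 873 CPM of Akap5 at day 0 and 952, 767 and 387 CPM at days 8, 13 and 20. By that measure day 8 was closest for Akap5 and lay above day 0, while day 13 stayed closest for Clic5 and Emp2. Whether day 13 differs from the other days cannot be told apart from the library.

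The 5 other members were lower by larger factors. Pdpn had 1013 CPM at day 0 and no UMI in the 8 cells of day 8, which is at least 24.9-fold lower against a floor of 3 counts over the group. At days 13 and 20 it had 101 CPM (72.6 to 136) and 151 CPM (100.3 to 218), which is 10.1-fold and 6.71-fold lower. At those 2 days the fall of Pdpn lay between those of Clic5, Akap5 and Emp2 and those of Rtkn2, Spock2, Igfbp2 and Pxdc1.

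Rtkn2 had 1142 CPM (1091 to 1196) at day 0, no UMI at day 8, and 14.4 CPM (5.28 to 31.3) and 21.6 CPM (5.88 to 55.2) at days 13 and 20. It was at least 28.1-fold lower at day 8, 79.4-fold lower at day 13 and 53.0-fold lower at day 20. Spock2 had 1079 CPM at day 0, no UMI at day 8, and 45.6 CPM (27.4 to 71.2) and 27.0 CPM (8.75 to 62.9) at days 13 and 20. It was at least 26.5-fold lower at day 8, 23.7-fold lower at day 13 (log2 ratio -4.56, -5.30 to -3.92) and 40.0-fold lower at day 20 (-5.32, -6.95 to -4.10). The 2 genes therefore had UMIs in gated cells at days 13 and 20, but few.

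Igfbp2 had 2412 CPM at day 0, no UMI at days 8 and 20, and 16.8 CPM (6.75 to 34.6) at day 13. It was at least 59.3-fold lower at day 8, 144-fold lower at day 13 and at least 149-fold lower at day 20. Pxdc1 had 979 CPM at day 0 and 13.6 CPM (0.343 to 75.6) at day 8 from 1 UMI, a log2 ratio of -6.17 (-11.48 to -3.69). At days 13 and 20 it had 14.4 and 32.4 CPM, which is 68.0-fold and 30.3-fold lower. At no culture day was either gene near its day 0 level.

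**Figure D3:**
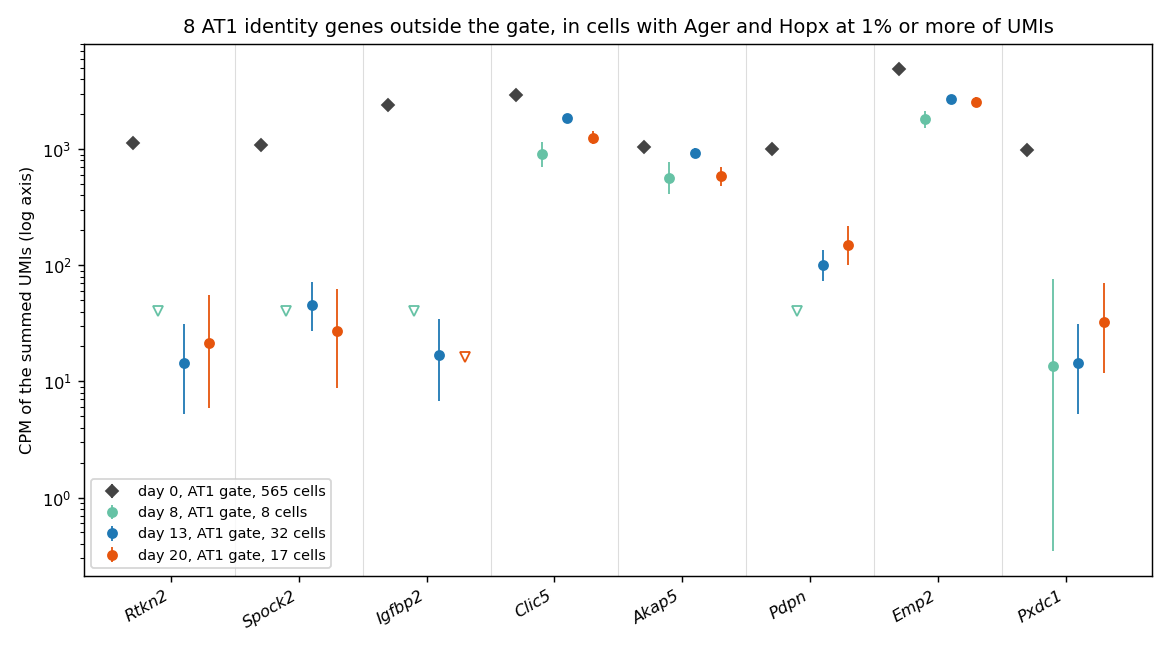
CPM (log axis) of the 8 genes outside the gate in cells with Ager and Hopx at 1% or more of UMIs, at day 0 (diamonds) and in epithelial cells of days 8, 13 and 20 (circles), with exact Poisson intervals. Open triangles mark the level of 3 counts where no UMI was seen. Clic5, Akap5 and Emp2 lie within 3.22-fold of their day 0 level, Pdpn lies in between, and Rtkn2, Spock2, Igfbp2 and Pxdc1 drop to 45.6 CPM or less.

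Cell by cell, the same division held within the gated cells. Clic5 had a UMI in 8 of 8, 31 of 32 and 16 of 17 gated cells at days 8, 13 and 20, Emp2 in all of them and Akap5 in 7, 25 and 13. Rtkn2 was seen in 0, 4 and 4 of these cells, Spock2 in 0, 9 and 3, Igfbp2 in 0, 2 and 0, Pxdc1 in 1, 4 and 5, and Pdpn in 0, 10 and 6. For Spock2, Igfbp2 and Pdpn, many of the UMIs that remained came from single cells. At day 13, 10 of the 19 Spock2 UMIs were in 1 cell of 16718 UMIs, and 6 of the 7 Igfbp2 UMIs were in 1 cell of 2644 UMIs. Likewise 17 of the 42 Pdpn UMIs of day 13 and 16 of the 28 of day 20 were in 1 cell each, of 27155 and 32211 UMIs. Pxdc1 was more spread, with 6 UMIs over 4 cells at day 13 and 6 over 5 cells at day 20. Rtkn2 had 4 UMIs over 4 cells at day 20, while 3 of its 6 UMIs of day 13 were in 1 cell.

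Day 0 cells were shallower, so each cell was also thinned to 2000 UMIs, which leaves 345 gated cells at day 0 and 6, 28 and 15 at days 8, 13 and 20. Rtkn2 then had a UMI in 81.4% of day 0 gated cells and in none of the 6, 28 and 15 cultured ones, whose upper limits are 45.9%, 12.3% and 21.8%. Spock2 was seen in 80.3% at day 0 and 0%, 7.14% and 0% at the later days, Igfbp2 in 87.2% and 0%, 7.14% and 0%, and Pxdc1 in 83.8% and 0%, 3.57% and 6.67%. Clic5 was seen in 99.4% at day 0 and 66.7%, 89.3% and 80.0% at days 8, 13 and 20, and Akap5 in 81.2% and 66.7%, 64.3% and 66.7%. In day 0 non-epithelial cells, thinned alike, the shares were 0.829% for Igfbp2, 1.37% for Rtkn2, 1.77% for Akap5, 16.4% for Clic5 and 14.4% for Emp2, where the median cell had 2353 UMIs before thinning and the median AT1 cell 2567. In cultured non-epithelial cells Clic5 reached at most 0.387% and Emp2 2.98%, 3.71% and 4.99% at days 8, 13 and 20.

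The 2 groups of genes were also counted jointly on the thinned cells, grouped after their values were seen. At least 1 of Clic5, Akap5 and Emp2 was present in 345 of 345, 6 of 6, 27 of 28 and 15 of 15 gated cells at days 0, 8, 13 and 20. At least 1 of Rtkn2, Spock2, Igfbp2 and Pxdc1 was present in 343 of 345, 0 of 6, 4 of 28 and 1 of 15. The median gated cell carried 7 of the 8 genes at day 0 and 2.5, 3 and 3 at days 8, 13 and 20. The gated cells of culture therefore showed part of the set in nearly every cell, not the whole set in a few.

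Other genes moved in the gated cells alongside. The AT2 marker list summed to 1854 CPM at day 0 and 3093, 38268 and 86657 CPM at days 8, 13 and 20, and Sftpc, the surfactant protein C gene of AT2 cells, reached 1% of UMIs in 4 of 565, 1 of 8, 11 of 32 and 9 of 17 gated cells. The part of these AT2 counts in the members' levels was not tested. With gated cells limited to those under 1% Sftpc, 7, 5 and 6 members were lower. With a fixed share of barcodes with the highest Scrublet scores removed, 7, 5 and 7 were lower. That removal took none of the cultured gated cells, and since its size was set in advance it does not show that they hold no doublets. The day 8 gated cells also held 7297 CPM of the basal marker list, against 0.619 CPM at day 0, in 4 of its 7 genes. The transitional marker list summed to 2095 CPM at day 0 and 14039 CPM, 6388 CPM and 3850.0 CPM at days 8, 13 and 20, with all 8 of its genes seen at each day. The airway secretory list summed to 6683 CPM at day 0 and 10892 CPM, 24932 CPM and 21552 CPM, with 7, 5, 7 and 5 of its 8 genes seen. The myeloid list summed to 1235 CPM at day 0 and 719, 2252 and 3931 CPM, with 8, 7, 8 and 6 of its 8 genes seen. The endothelial list had 179.6 CPM at day 0 and 0, 4.80 and 10.8 CPM, and the ciliated list 822 CPM at day 0 and 13.6, 31.2 and 27.0 CPM. Cdh5 and Foxj1, defining genes of endothelial and ciliated cells, had no UMI in the cultured gated cells, and Ptprc, of immune cells, had 2 UMIs at day 13 and none at days 8 and 20. The part of these other cell types in the members' levels was not tested. The EGFP reporter had 1765 CPM in day 0 gated cells and 67.8, 1048 and 874 CPM at days 8, 13 and 20.

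The gated cells were also set against the other epithelial cells of their own library, where 9.92%, 13.3% and 9.37% of genes were higher and 4.37%, 15.2% and 7.47% lower at days 8, 13 and 20. Clic5 was 10.9-fold, 40.6-fold and 12.0-fold higher, Akap5 11.8-fold, 39.6-fold and 14.3-fold, and Emp2 7.17-fold, 12.7-fold and 8.45-fold. Pdpn was 2.48-fold higher at day 13 and 5.41-fold at day 20. Spock2 had 45.6 CPM in gated cells against 0.610 CPM in other epithelial cells at day 13 (log2 ratio 6.22, 5.29 to 7.13). At day 20, Spock2 with 5 UMIs, Rtkn2 with 4 and Pxdc1 with 6 were higher in gated cells as well. Igfbp2 had 16.8 CPM in gated cells against 13.8 CPM in other epithelial cells at day 13 (log2 ratio 0.29, -1.03 to 1.34), which did not meet the rule, and at day 20 it had 0 UMIs in gated cells and 6 in the others.

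By the rule of the 8 highest ratios, the genes that led the gated cells were Pxdn, Cldn18, Ndnf, Col4a3, Cryab, Entrep1, Misp3 and Plb1. Cldn18, a claudin of alveolar tight junctions, had 1560 CPM in gated cells against 128 CPM in other epithelial cells at day 8, 3070.3 against 61.4 CPM at day 13, and 2772 against 218 CPM at day 20. Ndnf, a secreted neuron-derived neurotrophic factor, had 1275 against 136 CPM, 2000.5 against 46.6 CPM, and 1450.5 against 97.6 CPM at the same days. Day 0 AT1 cells had 4098 CPM of Cldn18 and 1819 CPM of Ndnf. Ndnf and Col4a3, a basement membrane collagen chain, are also among the 3 genes whose pattern was most like that of Akap5.

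The epithelial cells were also graded by their joint Ager and Hopx share, which extends the view below the gate. The 5 bins were under 0.02%, 0.02 to 0.1%, 0.1 to 0.5%, 0.5 to 1% and 1% or more of UMIs. At day 20, Clic5 had 22.5, 68.6, 157, 517 and 1256 CPM from the lowest bin to the highest, Akap5 had 1.14, 13.6, 63.0, 393 and 588 CPM, and Emp2 had 118, 226, 426, 1171 and 2577 CPM. Each of the 3 climbed with every bin at days 8, 13 and 20. Clic5 in culture followed the day 0 values in the lower bins, with 157 CPM at day 20 against 131 CPM at day 0 in the bin of 0.1 to 0.5%. Akap5 lay above day 0 there, with 117, 117 and 63.0 CPM at days 8, 13 and 20 against 21.3 CPM at day 0.

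In culture Rtkn2, Spock2, Igfbp2 and Pxdc1 lay between 0 and 8.72 CPM in every bin below the gate, with 1 exception, Igfbp2 at 19.6 CPM in the lowest bin of day 13. In the bin of the gate they reached up to 45.6 CPM, the level of Spock2 at day 13. Pxdc1 at day 20 increased with every bin, with 1.36, 1.60, 1.77, 6.95 and 32.4 CPM from the lowest to the highest. In day 0 cells of the bin of 0.5 to 1%, which held 7 cells, Rtkn2 had 382 CPM, Spock2 361 CPM, Igfbp2 531 CPM and Pxdc1 255 CPM. The culture bins of 0.5 to 1% held 23, 25 and 55 cells at days 8, 13 and 20. Since Clic5, Akap5 and Emp2 share their cells and libraries with Ager and Hopx, these gradients are descriptions.

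**Figure D4:**
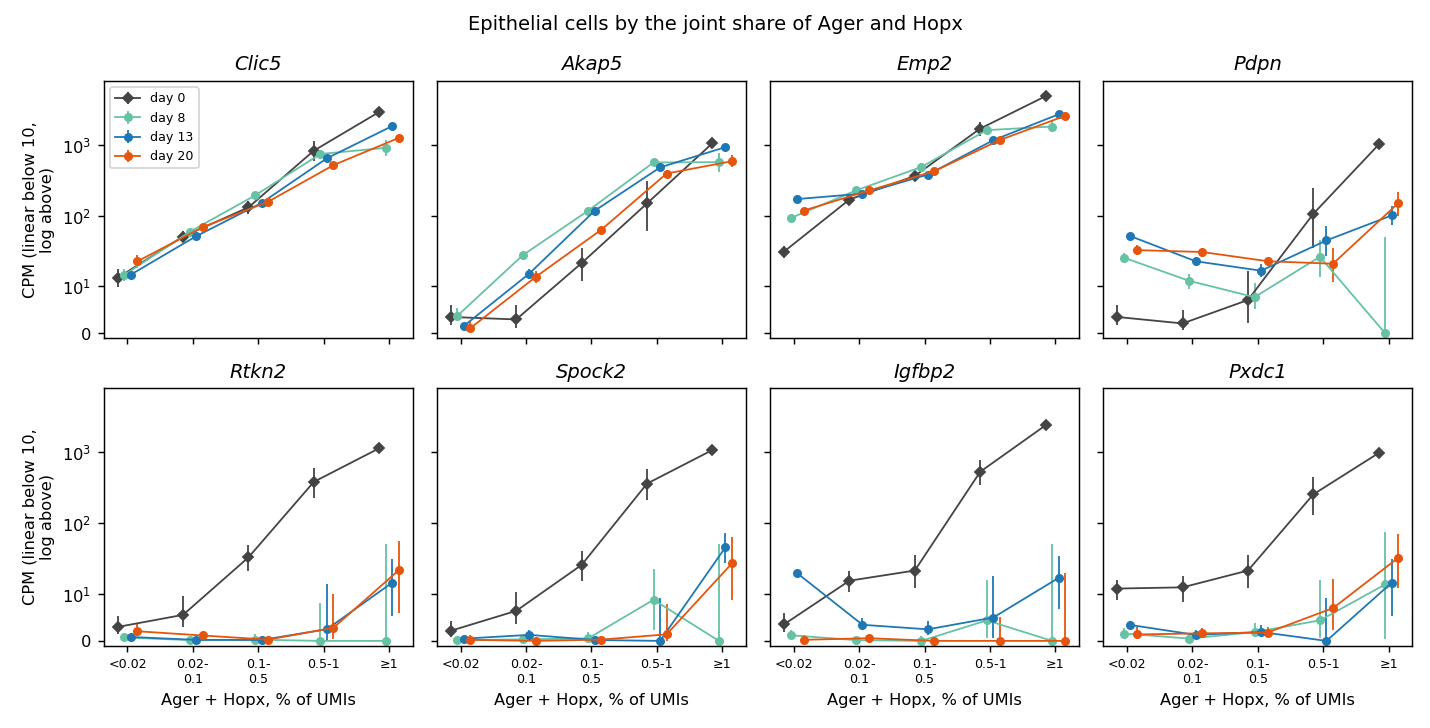
CPM of the 8 genes (linear below 10, log above) in epithelial cells binned by the joint share of Ager and Hopx among their UMIs, 1 line per day, with exact Poisson intervals. Clic5, Akap5 and Emp2 climb along the axis at each day, whereas Rtkn2, Spock2, Igfbp2 and Pxdc1 reach 979 CPM or more in the highest bin of day 0 and 45.6 CPM or less in every bin of culture.

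The members were also read in AT2-like cells. These cells were classed from AT2 markers outside the gate, 65 at day 0 and 394, 490 and 567 at days 8, 13 and 20. Akap5 had 8.32 CPM in AT2-like cells of day 0, from 4 UMIs and no more than in day 0 myeloid-like cells, and 102, 90.6 and 72.9 CPM at days 8, 13 and 20. The log2 ratios were 3.61 (2.25 to 5.49), 3.44 (2.08 to 5.32) and 3.13 (1.77 to 5.01), all called higher, where 19.7%, 16% and 13.5% of genes were higher and 10.4%, 11.7% and 10.1% lower. Ager had 670 CPM at day 0 and 1233, 1128 and 1390 CPM, and Hopx had 183 CPM at day 0 and 305, 238 and 404 CPM, and both were called higher at day 20. Clic5, at 99.9 CPM at day 0 and 156, 118 and 145 CPM later, and Emp2, at 279 CPM and 446, 335 and 442 CPM, did not meet the rule at any day. Rtkn2, Spock2 and Igfbp2 stayed under 1 CPM in cultured AT2-like cells.

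Other epithelial classes carried other members. The 277 basal-like cells of day 13, which express keratins of stratified epithelium, had 94.3 CPM of Igfbp2 against 0.588 CPM in AT2-like cells of the same day, a 160-fold difference, and 95.6 against 16.3 CPM of Pdpn, a 5.85-fold difference. Both were called higher, where 18% of genes were higher, and this class held 428 of the 593 Igfbp2 UMIs of day 13 epithelial cells. Pxdc1 pointed the same way at 13.9 against 1.06 CPM, under the level of 20 CPM. Clic5 had 4.63 CPM in basal-like cells against 118 CPM in AT2-like cells, Akap5 1.101 against 90.6 CPM and Ager 4.85 against 1128 CPM, all called lower, where 11.8% of genes were lower. Emp2, at 293 against 335 CPM, did not meet the rule. Pdpn also had 37.9, 64.0 and 84.8 CPM in airway secretory-like cells of days 8, 13 and 20, and Hopx had 582 CPM in ciliated-like cells of day 0 and 703, 325 and 710 CPM in those of days 8, 13 and 20. Cells with an Epcam UMI but a myeloid class numbered 247, 583 and 101 at days 8, 13 and 20, so the epithelial sums also hold cells of other types or mixed droplets, whose part was not tested.

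The other AT1 genes gave the frame for the 10. Of 27 genes on a separate AT1 list, all 27 were lower in cultured epithelial cells than in day 0 AT1 cells at each of days 8, 13 and 20, with median log2 ratios of -4.93, -5.43 and -4.69. In AT1-gated cells, 21, 22 and 24 of the 27 were lower and 2, 0 and 0 higher, with medians of -2.38, -1.84 and -2.28. The 3 lowest ratios of cultured epithelial cells at day 20 belonged to Gpm6a, a neuronal membrane glycoprotein (0.0468 CPM from 1 UMI against 298 CPM in day 0 AT1 cells), to Cyp2b10, a cytochrome (log2 ratio -8.49), and to Lama3, a laminin chain (-7.57). The 3 highest belonged to Aqp5, the water channel of AT1 cells (1366 CPM in day 20 epithelial cells against 4308 CPM in day 0 AT1 cells), to the keratin Krt7 (314 against 1522 CPM) and to Mal2, a protein of apical transport (149 against 1095 CPM).

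Among 7 transcription regulators of alveolar epithelium, 2, 3 and 3 were lower in AT1-gated cells of days 8, 13 and 20 and 1 was higher at day 8. Nkx2-1, the lineage factor of lung epithelium, had 510.2 CPM at day 0 and 353, 259 and 297 CPM at days 8, 13 and 20 and was not called at any day. Tead1, the DNA-binding partner of YAP and TAZ, had 703 CPM at day 0 and 136, 185 and 108 CPM and was lower at each day. In the same gated cells Aqp5 had 4308 CPM at day 0 and 9169, 6251 and 5263 CPM at days 8, 13 and 20, and was called higher at day 8. Aqp5 was in a minority there: 21, 22 and 24 of the 27 other AT1 genes were lower in the same cells at days 8, 13 and 20.

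The pattern across all classes was summarised by Pearson's r of log2(CPM + 1) over 47 day-by-class sums, which share libraries, depth and free RNA. Ager and Akap5 had r of 0.90, Hopx and Clic5 0.85, Spock2 and Pxdc1 0.83, Ager and Clic5 0.81, and Clic5 and Emp2 0.80. Among the 4 genes at 13.8 CPM or less in culture, r ranged from 0.53 for Rtkn2 and Pxdc1 to that 0.83. They were grouped by low culture levels that enter the same sums, so r within and between groups partly restates the grouping. Between them and the other 6 it ranged from 0.12 for Akap5 and Pxdc1 to 0.52 for Hopx and Spock2, and within the 6 the lowest was 0.45, for Hopx and Pdpn. The 3 genes most like each member were, for Ager, AA986860 (0.87), Gprc5a and Scnn1b, for Hopx, Mfsd6, Clcn3 and Crip2, for Clic5, Fgf1 (0.88), Adgrf5 and Nectin3, for Akap5, Col4a4 (0.80), Col4a3 and Ndnf, and for Emp2, Pls3 (0.90), Tspan15 and Itga3. For the rest they were Resf1, Lrch1 and Gtf3c2 for Rtkn2, Eif1, Limch1 and Slc44a2 for Spock2, Popdc3 (0.70), S100a9 and Cyp2b10 for Igfbp2, Col4a4, Agrn and Ctdspl for Pdpn, and Tmem123 (0.87), Lrch1 and Slc44a2 for Pxdc1.

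The 10 genes lie on 8 chromosomes of the GRCm38 mouse build, with Ager and Clic5 sharing chromosome 17 and Rtkn2 and Spock2 chromosome 10. In the GENCODE M21 annotation Ager spans chr17:34597862-34600936 and Clic5 spans chr17:44188584-44280172 on the plus strand, Hopx chr5:77086988-77115121 (minus), Rtkn2 chr10:67979570-68059740 (plus), Spock2 chr10:60106219-60135198 (plus) and Igfbp2 chr1:72824503-72852474 (plus). Akap5 spans chr12:76324891-76334153 (plus), Pdpn chr4:143267431-143299564 (minus), Emp2 chr16:10281749-10313968 (minus) and Pxdc1 chr13:34627834-34653486 (minus). Antisense genes overlap Hopx, Rtkn2 and Pxdc1 and are not features of the count tables.

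Promoters are printed for the 3 genes within 3.22-fold of day 0 under the gate and for 3 of the 5 others, so that both groups can be read side by side. Each is the 250 bases upstream of the first listed start site in RefSeq (GRCm38.p6), 5' to 3' on the gene's strand. RefSeq entries were matched for 9 of the 10 genes, with 11 start sites in all. Motifs were searched on both strands. Capitals mark the GC box motif GGGCGG, the core promoter motif TATAAA, the NKX2-1 motif CTCAAG, the TEAD motif GGAATG, the AP-1 motif TGANTCA, the motif of GATA factors AGATAA and the FOXA motif TGTTTNC, and the E-box CANNTG is not capitalised. For the first group the windows are Clic5 at chr17:44188322-44188571 (plus strand), Akap5 at chr12:76324641-76324890 (plus strand) and Emp2 at chr16:10313969-10314218 (minus strand).
Clic5: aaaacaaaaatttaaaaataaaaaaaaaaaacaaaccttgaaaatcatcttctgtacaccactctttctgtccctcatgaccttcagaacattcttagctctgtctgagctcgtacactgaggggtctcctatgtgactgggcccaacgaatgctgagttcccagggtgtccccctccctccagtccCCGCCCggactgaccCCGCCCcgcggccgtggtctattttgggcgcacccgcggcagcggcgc
Akap5: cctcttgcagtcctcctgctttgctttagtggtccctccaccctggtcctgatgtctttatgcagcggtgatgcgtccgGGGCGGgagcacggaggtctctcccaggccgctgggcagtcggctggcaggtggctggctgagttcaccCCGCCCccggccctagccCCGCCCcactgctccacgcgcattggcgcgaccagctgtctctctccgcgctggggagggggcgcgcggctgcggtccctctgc
Emp2: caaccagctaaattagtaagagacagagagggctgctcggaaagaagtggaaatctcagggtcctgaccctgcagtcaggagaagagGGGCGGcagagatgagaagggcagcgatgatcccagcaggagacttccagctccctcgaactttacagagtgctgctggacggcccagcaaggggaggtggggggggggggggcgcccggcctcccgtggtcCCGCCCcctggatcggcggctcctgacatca

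For the second group they are Spock2 at chr10:60106007-60106256 (plus strand), Igfbp2 at chr1:72824230-72824479 (plus strand) and Pxdc1 at chr13:34652682-34652931 (minus strand).
Spock2: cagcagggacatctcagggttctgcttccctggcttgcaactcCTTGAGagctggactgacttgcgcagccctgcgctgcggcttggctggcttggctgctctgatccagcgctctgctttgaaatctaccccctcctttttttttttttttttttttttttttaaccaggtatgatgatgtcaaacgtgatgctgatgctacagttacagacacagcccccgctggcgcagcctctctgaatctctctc
Igfbp2: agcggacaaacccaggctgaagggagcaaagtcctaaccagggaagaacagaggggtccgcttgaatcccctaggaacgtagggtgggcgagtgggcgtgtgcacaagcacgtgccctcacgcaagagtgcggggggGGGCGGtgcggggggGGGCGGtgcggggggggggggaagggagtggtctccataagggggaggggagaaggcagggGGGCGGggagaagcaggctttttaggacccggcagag
Pxdc1: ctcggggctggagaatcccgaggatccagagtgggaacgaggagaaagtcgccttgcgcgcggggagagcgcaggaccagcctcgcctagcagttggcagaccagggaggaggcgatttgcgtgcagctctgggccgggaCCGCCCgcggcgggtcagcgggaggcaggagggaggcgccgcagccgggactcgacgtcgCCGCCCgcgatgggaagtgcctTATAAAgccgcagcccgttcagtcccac

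The GC box was found in 2, 3 and 2 copies upstream of Clic5, Akap5 and Emp2, and in 0, 3 and 2 copies upstream of Spock2, Igfbp2 and Pxdc1, whereas 32.7% of 32851 promoter windows of the same length hold at least 1. TATAAA was found upstream of Pxdc1 alone among the 11 (12.4% of all windows), and CTCAAG upstream of Spock2 among the 6 printed (13.3%). TGANTCA was found at the second Igfbp2 start site (6.75% of all windows) and TGTTTNC upstream of Pdpn (17.8%), while the E-box, in 66.2% of all windows, was in those of Akap5, Igfbp2 and Pxdc1 among the 6. GGAATG and AGATAA were in none of the 11 windows, and they are in 12.6% and 9.99% of all windows. The share of G and C was 52.8%, 70.0% and 62.8% upstream of Clic5, Akap5 and Emp2 and 51.2%, 67.2% and 69.6% upstream of Spock2, Igfbp2 and Pxdc1, against a median of 52.4% over all windows. A match is a description of letters and no more, and the groups of printed genes overlapped in both G and C content and GC box number.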

How the data were processed

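RNA of single cells was counted in 4 libraries, 1 per day, built with 10x Chromium 3' reagents (v3.1), per the labels' protocols. The deposited counts are UMI counts per gene and barcode in filtered matrices, made by the authors with Cell Ranger 7.0.1 on mm10, per the submitters' processing notes. Nuclear RNA is the molecule entered in the labels, which otherwise describe whole cells. A correction for free RNA or doublets is not given in the sources used here.

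From those counts, barcodes with at least 500 genes and at most 15% mitochondrial UMIs were kept, UMIs were summed per cell group and divided by the group's total to give CPM. Levels carry exact Poisson intervals, shares Clopper-Pearson intervals and ratios exact conditional intervals, all at 95%. A gene was called at 2-fold, 20 CPM on the larger side and an interval leaving out 1. A side with no UMI was set to 3 counts and the ratio given as a bound. Free RNA and mixed droplets add counts that no interval covers. Classes took the marker list with the highest share of detected genes, 3 or more, ties excluded. Cells were thinned to 2000 UMIs for shares.

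Beside the 10 members, the text names the 3 lowest and 3 highest ratios of the other AT1 genes at day 20, the 3 genes most like each member by Pearson's r among genes at 50 CPM or more in a class, the 8 highest ratios of gated over other epithelial cells, and markers a result turns on. The 10 members, the marker lists and the rules were chosen with earlier results of these data known. Poisson counts were simulated from the summed day 0 AT1 profile, with 200 changed genes of 50 CPM or more. The rule recovered 100%, 99.5% and 100% of them for epithelial cells of days 8, 13 and 20 over day 0 AT1 cells. For AT1-gated cells it recovered 75.5%, 93% and 92.5%, and called 1.93%, 2.18% and 2.45% of unchanged genes. Variation between cells, classes or libraries was not simulated, so these shares cover counting error only. Alternatives were other scalings, gates, filters, fold limits, epithelial definitions and removal of the barcodes with the highest Scrublet scores in scanpy 1.11.5. The share removed was fixed at 0.8% per 1000 barcodes. Median-of-ratios scaling used genes with at least 50 UMIs on both sides, which favours genes high in the group with fewer UMIs. Other tools were Python 3.11.15, numpy 2.4.6, scipy 1.17.1 and matplotlib 3.10.9. Promoters came from the RefSeq table for GRCm38.p6.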

Additional observations from a re-analysis of the deposited data

How the results depend on the processing

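No paired analysis was possible because each day is 1 library. With 1 library per day, animal, culture, sort, EpCAM beads and depth cannot be told apart from the day, and leaving out a replicate was not possible. In 8 to 32 gated cultured cells, 1 cell can hold most UMIs of a rare gene, and a gene with no UMI has an upper limit of 50.04 CPM at day 8 and 19.9 CPM at day 20. Over all single-gene comparisons with alternatives, every value of cultured epithelial over day 0 AT1 cells (408) and of day 0 AT1 over day 0 non-epithelial cells (112) kept its direction and call. For AT1-gated over day 0 AT1 cells, 397 did, 11 lost a call, 23 gained one and 1 reversed; the gains were for Akap5, Emp2 and Clic5 and mean that their place near day 0 depends on the scaling, the gate and the definition of an epithelial cell. Of the values within culture libraries, 385 kept their call, 1 lost and 4 gained one, and of those between culture days 222 kept, 3 lost and 15 gained one. Akap5 at day 20 was called lower at a gate of 0.5% (log2 ratio -1.21), with a gate on Ager alone (-1.30), with mean single-cell CPM (-1.04) and in cells under 1% Sftpc (-1.04). A gate of 2% left 1 cell at day 8, where 0 members were called lower and Clic5 reversed to a log2 ratio of 0.68 without a call. The share of epithelial cells in the gate was 3.66%, 2.47% and 6.49% at a gate of 0.5% and 0.118%, 0.347% and 0.360% at 2%, for days 8, 13 and 20. It was 2.95% at day 20 when cells had to carry more epithelial than other markers. Between culture days, the members called for day 13 over day 8 were 2 at a 1.5-fold limit, 0 at 4-fold and 4 with more epithelial than other markers. For day 20 over day 13 they were 2 under median-of-ratios scaling, 3 without the 20 top genes, 2 with mean single-cell CPM, 3 at 1.5-fold, 0 at 4-fold, 4 with more epithelial than other markers and 2 with Lyz2 not counted in that rule, a setting chosen after seeing the data, as were the limit on Sftpc, the removal of AT1 cells with endothelial markers and of epithelial classes from non-epithelial cells.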
